A study of Homo sapiens with 12 samples.

Results

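The transcripts described are those of 40 genes that repair DNA by homologous recombination, by the Fanconi anemia pathway or by mismatch repair, or that signal DNA damage to the cell cycle. They were taken by gene symbol from a given list, and 18 are recombination genes, 11 Fanconi genes, 5 mismatch repair genes and 6 checkpoint genes. All 40 were found among the 22257 genes of the count files, and all 40 are among the 14416 genes that passed the filter on low counts. The list leaves out other genes of these pathways, which are counted in lists of their own.

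The cells were LN229, an established human glioblastoma line, kept for 24 hours in RPMI medium with 10% dialyzed serum, from which small molecules such as glucose and acetate have been largely removed. A first group had 10 mM glucose in its medium, a further group received 5 mM acetate beside a glucose level of 1 mM, and the last had 1 mM glucose alone, with 4 libraries of each and 12 in all. The medium with acetate is called acetate below. The comparisons ask how these transcripts depend on glucose supply and whether acetate, which cells can make into acetyl-CoA, alters them under low glucose. One cell line was used, and nothing says that the replicates were separate cultures, so a p measures the spread between these libraries, which may be technical.

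Homologous recombination repairs a broken chromosome by copying an intact sister, and so works mainly while DNA is being replicated and afterwards. BRCA1 with BARD1, then PALB2 and BRCA2, prepare DNA that nucleases have made single-stranded for the search for its intact copy. The Fanconi proteins detect crosslinks between the strands, attach ubiquitin to FANCD2 and FANCI, and hand the lesion to nucleases and recombination. Mismatch repair removes replication errors, with MSH proteins that find the mismatch and partners of the PMS and MLH families that start its removal. ATM and ATR are the kinases that report breaks and stalled forks to CHEK2 and CHEK1. Many of these genes are known targets of E2F factors, which act at the start of DNA replication.

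Total counts were 24.4 to 27.2 M per library, M standing for mega. Levels are given as CPM, the count per mega-count of a library scaled by the TMM method, and a gene counts as called where the edgeR adjusted p over the 14416 genes was under 0.05. Vimentin (VIM) averaged 3768, 4473 and 5249 CPM and nestin (NES) 1053, 492 and 452 CPM at 10 mM glucose, with acetate and in 1 mM glucose, and both are abundant in glioma cells. The astrocyte marker GFAP was near 0, at 0.848, 1.14 and 0.980 CPM, and so were the blood marker PTPRC and the endothelial marker CDH5, with group means of at most 0.447 CPM, and no STMN2 count was recorded. Of the 4 microglia and blood markers CD68 passed the filter on low counts, and of the 3 endothelial markers VWF. Of the 4 neuron markers SYT1 and SNAP25 passed it. Of the 8 glial and glioma markers, VIM, NES, GFAP, S100B, SOX2, OLIG2, AQP4 and SLC1A3, 7 passed it. At 10 mM against 1 mM glucose CD68 was called lower (log2 fold change −1.52) and VWF higher (1.52). VWF was also called higher with acetate at 1 mM glucose (1.62). Of the 2 neuron markers tested, 1 was called higher (0.88) and 1 lower (−2.10) at 10 mM against 1 mM glucose. Of the 7 glial and glioma markers tested, 4 were called higher and 2 lower there, against 33.7% and 33.8% of all genes. Acetate replicate 1 and 1 mM glucose replicate 3 stood apart from the other libraries. Long transcripts were low there: across genes the Spearman correlation between transcript length and the level relative to all libraries was −0.481 in the first and −0.486 in the second, while the remaining 10 libraries had −0.178 to 0.228. Calls that change without both libraries are named below.

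Most of the repair genes were higher at 10 mM than at 1 mM glucose, and 8 were lower. The edgeR test called 28 of 40 higher (70%), against 33.7% of all genes tested, and 8 lower (20%), against 33.8% of all genes tested. MLH3 is among the 28, but it passed the filter on low counts through its 10 mM libraries alone and so had to differ. The median log2 fold change of the 40 was 0.43, against 0.00 over all genes. BARD1 and XRCC2 were the 2 genes that differed at least 2-fold, and 21 called genes differed at least 1.5-fold. The 8 lower genes were RBBP8, MUS81, WRN, RAD50, RAD51C and NBN of recombination, FANCE of the Fanconi core complex and PMS1 of mismatch repair. MSH3, PMS2, ATM and ATR were not called. In 27 of the higher genes the 4 libraries at 10 mM all lay above the 4 at 1 mM (31.1% of all genes), and in the 8 lower genes they all lay below (30.3% of all genes). MLH3 is also among these 27 and among the 21 genes that differed at least 1.5-fold. In cells measured in bulk, a change in the share of cells in a given state and a change in RNA per cell cannot be told apart.

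**Figure D1:**
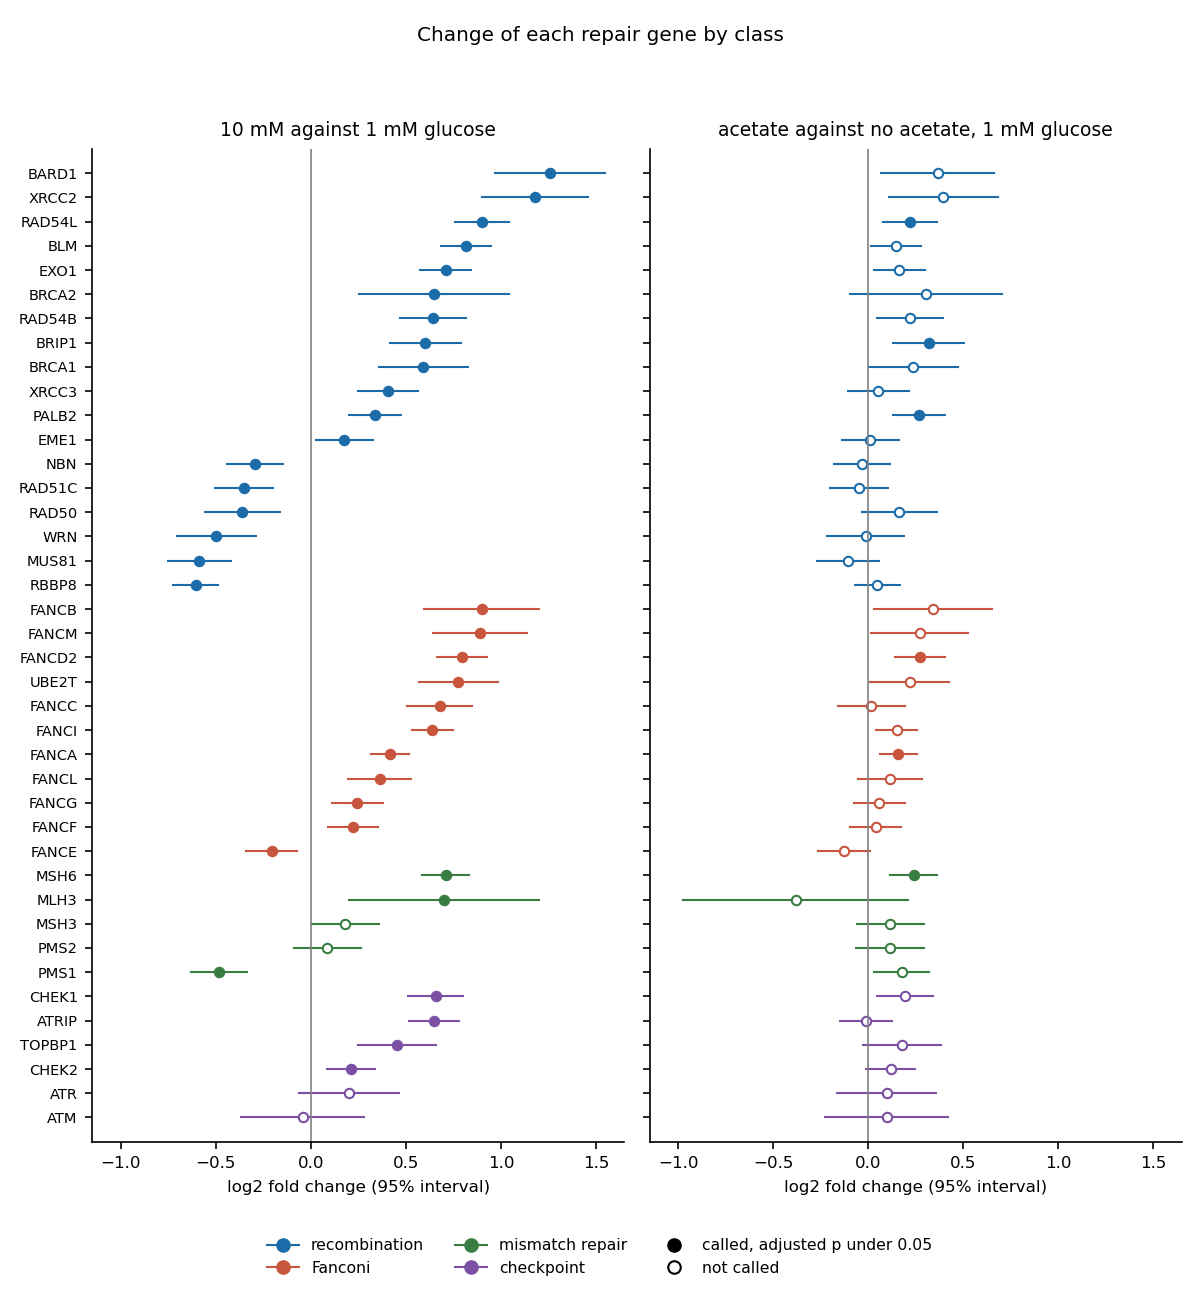
Log2 fold change (x axis, with 95% interval) of each of the 40 genes (y axis, coloured by class and ordered by the change for glucose), for 10 mM against 1 mM glucose on the left and acetate against no acetate at 1 mM glucose on the right. Filled points are called at an adjusted p under 0.05, 28 to the right and 8 to the left of 0 for glucose, and 6 to the right of 0 for acetate.

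Scaled by library totals, the median of all genes moved to 0.14 on the log2 scale, and 31 of the 40 were called higher, against 43.3% of all genes tested, and 6 lower, against 25.0%. Of the 36 calls 32 held under all 24 alternative settings tried. NBN and FANCE were not called with library totals (adjusted p = 0.0633 and 0.383), and EME1 and MLH3, the called genes with the largest p, lost their call under some of the others. Cell-cycle genes also moved with glucose, where 33.7% of all genes tested were called higher and 33.8% lower. The 19 genes of a G2/M list were all called higher at 10 mM, with a median log2 fold change of 1.30. Of the 19 genes of a G1/S list 18 were called higher and 1 lower, with a median of 0.80. The part of these cell-cycle genes in the change of the repair genes was not tested.

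The proximal promoters of 5 of these genes are shown to compare them for sequence words bound by E2F factors. Each runs from 250 bases before to 50 bases after an annotated start, on the plus strand of GRCh38.p14, as given by RefSeq. They belong to RAD54L (chr1:46247438-46247737), FANCD2 (chr3:10026187-10026486), MSH6 (chr2:47782895-47783194) and ATRIP (chr3:48446487-48446786), the gene with the smallest p for glucose in each class. RBBP8 (chr18:22933078-22933377), the gene with the lowest fold change, was added after its values were seen. The words searched were TTTCGCGC, TTTGGCGC and TTCCCGCC, on both strands, and capitals mark each match.
RAD54L: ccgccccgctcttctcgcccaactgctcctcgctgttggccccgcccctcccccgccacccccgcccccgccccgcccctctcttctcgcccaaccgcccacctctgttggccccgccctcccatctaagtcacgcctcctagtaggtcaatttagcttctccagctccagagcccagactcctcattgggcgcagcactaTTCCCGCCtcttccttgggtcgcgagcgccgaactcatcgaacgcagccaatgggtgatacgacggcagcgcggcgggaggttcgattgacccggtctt
FANCD2: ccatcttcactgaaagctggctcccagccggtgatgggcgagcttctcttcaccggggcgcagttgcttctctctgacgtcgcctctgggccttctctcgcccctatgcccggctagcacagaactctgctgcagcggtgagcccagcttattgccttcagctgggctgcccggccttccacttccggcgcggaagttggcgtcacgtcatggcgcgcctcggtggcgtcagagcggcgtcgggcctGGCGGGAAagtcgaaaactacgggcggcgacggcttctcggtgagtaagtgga
MSH6: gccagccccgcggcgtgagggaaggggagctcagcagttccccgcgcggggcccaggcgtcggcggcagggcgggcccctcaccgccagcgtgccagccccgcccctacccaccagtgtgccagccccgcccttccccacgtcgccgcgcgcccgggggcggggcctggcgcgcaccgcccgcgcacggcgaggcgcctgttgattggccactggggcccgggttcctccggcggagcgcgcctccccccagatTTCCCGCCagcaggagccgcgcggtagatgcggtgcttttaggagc
ATRIP: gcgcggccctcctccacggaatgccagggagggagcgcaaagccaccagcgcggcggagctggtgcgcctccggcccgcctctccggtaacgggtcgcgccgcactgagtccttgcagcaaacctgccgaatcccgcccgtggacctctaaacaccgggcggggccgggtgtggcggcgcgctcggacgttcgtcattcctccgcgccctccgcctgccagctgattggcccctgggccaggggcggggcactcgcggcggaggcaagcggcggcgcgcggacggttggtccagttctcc
RBBP8: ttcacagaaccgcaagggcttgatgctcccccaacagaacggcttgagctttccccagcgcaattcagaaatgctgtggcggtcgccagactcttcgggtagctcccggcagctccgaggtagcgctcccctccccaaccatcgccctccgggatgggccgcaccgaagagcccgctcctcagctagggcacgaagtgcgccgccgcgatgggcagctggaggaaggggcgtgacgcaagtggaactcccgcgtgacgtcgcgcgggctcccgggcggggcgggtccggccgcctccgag
RAD54L has TTCCCGCC from base −49 relative to the start, MSH6 has it from base 5 after the start, and FANCD2 has it on the other strand from base −3. No such word lies in the windows of ATRIP and RBBP8.

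Windows were available for 36 of the 40 genes, all but RAD54B, NBN, WRN and FANCI. An E2F word lay in at least 1 window of 12 of these 36 (33.3%), against 5.11% of the 27305 genes in the reference table. It was found in 11 of the 26 genes called higher at 10 mM glucose (42.3%), namely RAD54L, XRCC2, XRCC3, BRIP1, BLM, EXO1, FANCC, FANCD2, FANCL, MSH6 and TOPBP1. It was found in 0 of the 6 genes called lower, and among the 4 that were not called in MSH3. The windows of the 36 genes had a median GC content of 64.5%, against 58.3% over the whole table, and the E2F words are themselves rich in G and C. The CHR words TTTGAA and TTTAAA, known from promoters of late cell-cycle genes, lay in 6 of 36 (16.7%, against 27.9% of the table), and CCAAT in 18 of 36 (50%, against 39.7%). None of these words contains another. A match describes the letters of the window and does not show that a factor binds there.

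The genes of the BRCA1 and BRCA2 axis were all higher at 10 mM glucose, and BARD1 more than its partner BRCA1. BARD1, the partner that BRCA1 needs as a ubiquitin ligase, had 24.2, 28.1, 26.2 and 27.8 CPM at 10 mM glucose, 11.3, 14.5, 15.9 and 15.5 CPM with acetate, and 11.2, 13.8, 7.99 and 11.5 CPM at 1 mM glucose. The 4 libraries at 10 mM were all above the other 8, the acetate and 1 mM libraries overlapped, and the lowest value was that of 1 mM replicate 3. The fold change of 10 mM over 1 mM glucose was 2.39, or 1.26 ± 0.13 on the log2 scale (SE, adjusted p = 1.1e-06). BRCA1, which directs broken ends towards recombination, had 90.0, 97.0, 87.7 and 89.0 CPM at 10 mM glucose, 58.4, 72.6, 72.9 and 80.3 CPM with acetate, and 62.2, 72.9, 48.8 and 57.3 CPM at 1 mM glucose. BRCA1 was also highest in the 4 libraries at 10 mM. Its log2 fold change was 0.59 ± 0.11 (adjusted p = 0.00022).

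PALB2, the bridge between BRCA1 and BRCA2, had 26.4, 28.5, 26.7 and 27.6 CPM at 10 mM glucose, 23.9, 26.0, 26.3 and 27.9 CPM with acetate, and 20.1, 22.7, 20.9 and 22.8 CPM at 1 mM glucose. The acetate libraries reached the range of the 10 mM libraries, and all 8 of these lay above the 1 mM libraries. PALB2 was higher by 0.34 ± 0.06 on the log2 scale at 10 mM than at 1 mM (adjusted p = 0.00027). BRCA2, which PALB2 brings to the break, had 47.1, 55.7, 45.8 and 44.1 CPM at 10 mM glucose, 26.2, 37.5, 42.0 and 46.2 CPM with acetate, and 31.8, 41.2, 20.4 and 29.7 CPM at 1 mM glucose. BRCA2, at 11 kb the longest recombination transcript, was lowest in 1 mM replicate 3 and acetate replicate 1, and its acetate range overlapped both other groups. Its log2 fold change for 10 mM over 1 mM was 0.65 ± 0.19 (adjusted p = 0.00642), and 0.49 without these libraries (adjusted p = 9.8e-05). BRIP1, the FANCJ helicase that binds BRCA1, had 54.1, 58.9, 51.7 and 52.7 CPM at 10 mM glucose, 40.9, 44.1, 43.8 and 49.8 CPM with acetate, and 32.1, 42.3, 32.6 and 36.3 CPM at 1 mM glucose. Its 10 mM libraries were above all others, and the log2 fold change was 0.60 ± 0.09 (adjusted p = 2.3e-05).

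Of XRCC2, XRCC3 and RAD51C, which act together in early recombination, XRCC2 and XRCC3 rose and RAD51C fell. XRCC2, a subunit of a complex that also holds RAD51C, had 44.5, 47.3, 44.4 and 44 CPM at 10 mM glucose, 19.6, 26.2, 27.6 and 31.3 CPM with acetate, and 20.2, 24.8, 16.1 and 18.6 CPM at 1 mM glucose. The 4 libraries at 10 mM lay above the other 8, with a fold change of 2.27 over 1 mM, or 1.18 ± 0.13 on the log2 scale (adjusted p = 1.6e-06). RAD51C, which pairs with XRCC3 and also stands in the complex with XRCC2, had 36.3, 38.0, 35.4 and 38.4 CPM at 10 mM glucose, 52.9, 44.4, 43.3 and 41.6 CPM with acetate, and 48.0, 43.9, 48.6 and 48.2 CPM at 1 mM glucose. Its 4 libraries at 10 mM were below the other 8, with a log2 fold change of −0.35 ± 0.07 (adjusted p = 0.00056). XRCC3, the partner of RAD51C, had 34.9, 34.8, 38.5 and 32.9 CPM at 10 mM glucose, 30.0, 25.9, 26.5 and 28.0 CPM with acetate, and 25.9, 24.6, 30.1 and 25.9 CPM at 1 mM glucose. The 10 mM libraries of XRCC3 were above the others, with a log2 fold change of 0.40 ± 0.07 (adjusted p = 0.00022).

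The RAD54 motor proteins, which help strands to be exchanged, rose together. RAD54L, the main RAD54 of human cells, had 60.6, 56.8, 55.6 and 58.2 CPM at 10 mM glucose, 36.1, 35.6, 34.5 and 38.1 CPM with acetate, and 28.4, 31.5, 34.9 and 29 CPM at 1 mM glucose. The 10 mM libraries were far above the other 8, whose groups overlapped only through 1 mM replicate 3. RAD54L had the smallest p of the 40 genes for glucose, with a fold change of 1.87, or 0.90 ± 0.07 on the log2 scale (adjusted p = 1.8e-08). RAD54B, its paralog, had 38.7, 40.2, 39.0 and 40.5 CPM at 10 mM glucose, 29.8, 29.3, 26.8 and 32.2 CPM with acetate, and 23.0, 28.3, 22.3 and 27.8 CPM at 1 mM glucose. RAD54B was likewise highest in the 4 libraries at 10 mM, with a log2 fold change of 0.64 ± 0.08 (adjusted p = 5.2e-06).

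Of the genes described here for their part in opening a break, RBBP8, RAD50 and NBN were lower at 10 mM glucose and EXO1 was higher. RBBP8, also called CtIP, which starts the cutting back of a broken end, had 52.0, 53.3, 57.3 and 53.0 CPM at 10 mM glucose, 80.0, 83.9, 85.5 and 89.9 CPM with acetate, and 82.2, 85.8, 76.3 and 83.9 CPM at 1 mM glucose. All 4 libraries at 10 mM were below the other 8, and the acetate and 1 mM libraries overlapped. RBBP8 was 1.52-fold lower at 10 mM than at 1 mM, a log2 fold change of −0.61 ± 0.06 (adjusted p = 2.1e-07). RAD50, the arm of the complex that holds broken ends together, had 71.8, 78.1, 69.2 and 68.3 CPM at 10 mM glucose, 88.7, 101, 113 and 111 CPM with acetate, and 89.4, 109, 80.1 and 90.9 CPM at 1 mM glucose. NBN, the subunit of that complex that recruits ATM, had 87.6, 99.0, 87.8 and 92.3 CPM at 10 mM glucose, 101, 112, 109 and 117 CPM with acetate, and 109, 123, 101 and 117 CPM at 1 mM glucose. Both were lowest in the 10 mM libraries, with log2 fold changes of −0.36 ± 0.09 (adjusted p = 0.00318) and −0.29 ± 0.07 (adjusted p = 0.00171). EXO1, the exonuclease that lengthens the cut and also serves mismatch repair, had 99.0, 102, 101 and 100 CPM at 10 mM glucose, 63.6, 68.9, 64.6 and 78.7 CPM with acetate, and 59.1, 63.4, 61.5 and 62.2 CPM at 1 mM glucose. EXO1 moved the other way from RBBP8, RAD50 and NBN, with every 10 mM library above the other 8 and a log2 fold change of 0.71 ± 0.06 (adjusted p = 1.4e-07).

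The helicases and nucleases that act on joined molecules were divided. BLM, the helicase that takes apart joined molecules without crossing over, had 57.7, 63.7, 59.1 and 58.7 CPM at 10 mM glucose, 35.6, 38.1, 37.1 and 39.4 CPM with acetate, and 31.5, 37.0, 32.4 and 35.0 CPM at 1 mM glucose. WRN, the Werner helicase of the same family, had 22.7, 24.7, 21.0 and 21.6 CPM at 10 mM glucose, 27.6, 31.4, 31.6 and 35.1 CPM with acetate, and 30.5, 37.7, 27.4 and 31.4 CPM at 1 mM glucose. The 10 mM libraries were above all others for BLM and below all others for WRN. The log2 fold changes were 0.82 ± 0.06 for BLM (adjusted p = 2.2e-08) and −0.50 ± 0.10 for WRN (adjusted p = 0.00036). MUS81, the nuclease that cuts joined molecules and stalled forks, had 68.8, 67.4, 74.1 and 68.7 CPM at 10 mM glucose, 107, 92.9, 94.4 and 95.2 CPM with acetate, and 104, 91.7, 121 and 102 CPM at 1 mM glucose. EME1, a partner with which MUS81 cuts, had 69.2, 69.9, 68.0 and 70.8 CPM at 10 mM glucose, 67.0, 61.5, 60.5 and 58.9 CPM with acetate, and 55.0, 56.6, 68.1 and 66.3 CPM at 1 mM glucose. MUS81 was lowest in the 4 libraries at 10 mM, 1.5-fold lower than at 1 mM, with a log2 fold change of −0.59 ± 0.08 (adjusted p = 8.7e-06). EME1 had its lowest values in 2 libraries at 1 mM, and the 10 mM libraries lay within or just above the range of the others. Its log2 fold change was 0.18 ± 0.07 (adjusted p = 0.0381), with an adjusted p of 0.00105 to 0.134 over the alternative settings.

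**Figure D2:**
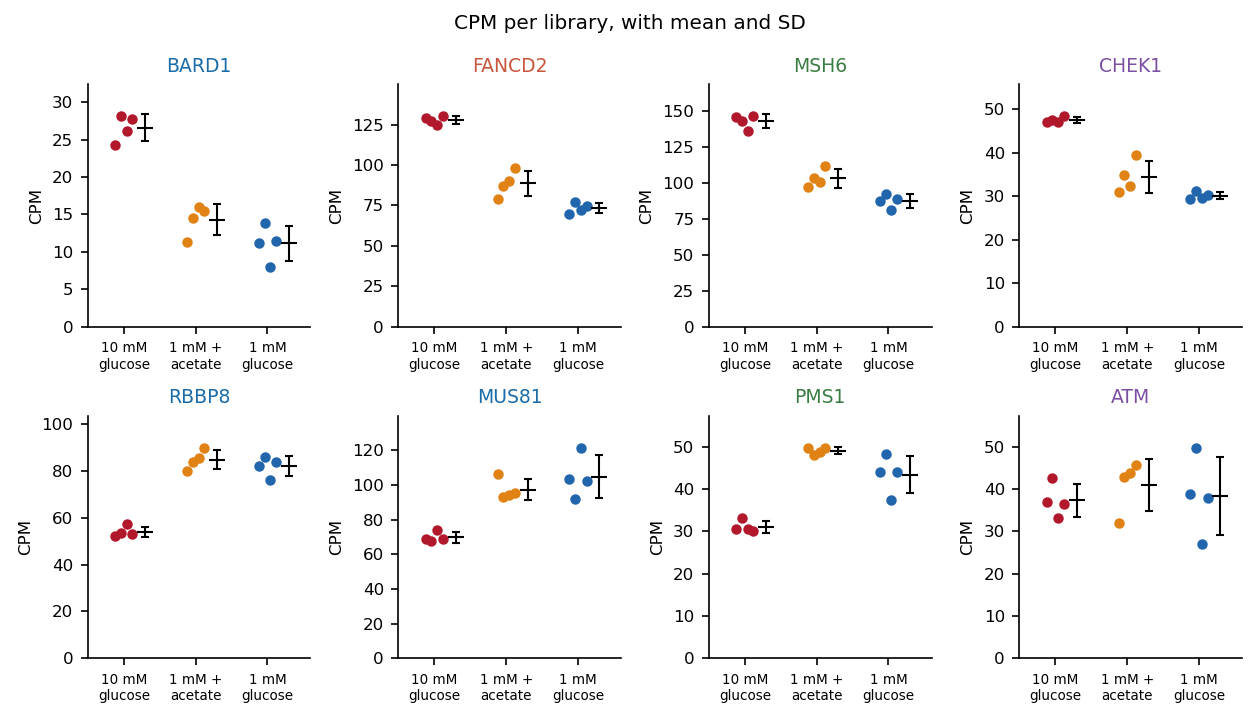
CPM (y axis) in each library of the 3 groups (x axis) for 8 of the genes, points being single libraries and the bars beside them the mean and SD of 4. BARD1, FANCD2, MSH6 and CHEK1 lie highest at 10 mM glucose, RBBP8, MUS81 and PMS1 lowest, and the groups of ATM overlap.

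In the Fanconi pathway 10 of 11 genes were called higher at 10 mM glucose, against 33.7% of all genes tested. FANCE was called lower, against 33.8% of all genes, and the median log2 fold change of the 11 was 0.64. FANCD2, the protein that receives ubiquitin at a crosslink, had 129, 127, 125 and 130 CPM at 10 mM glucose, 79.2, 86.7, 90.4 and 98.1 CPM with acetate, and 69.8, 77.1, 72.4 and 74.4 CPM at 1 mM glucose. FANCI, its partner, which receives ubiquitin as well, had 301, 304, 304 and 313 CPM at 10 mM glucose, 202, 222, 216 and 229 CPM with acetate, and 189, 203, 194 and 199 CPM at 1 mM glucose. For both genes the 10 mM libraries were above all others, and for FANCD2 all acetate libraries were above all 1 mM libraries. The log2 fold changes of 10 mM over 1 mM were 0.80 ± 0.06 for FANCD2 (adjusted p = 3.2e-08) and 0.64 ± 0.05 for FANCI (adjusted p = 3.6e-08). UBE2T, the enzyme that carries ubiquitin to them, had 76.9, 76.1, 79.7 and 83.0 CPM at 10 mM glucose, 60.6, 53.1, 46.7 and 53.9 CPM with acetate, and 40.9, 40.2, 55.5 and 47.6 CPM at 1 mM glucose. FANCL, the ligase that transfers it, had 49.0, 54.6, 52.3 and 51.6 CPM at 10 mM glucose, 49.9, 41.7, 39.9 and 43.2 CPM with acetate, and 35.2, 41.5, 43.3 and 41.4 CPM at 1 mM glucose. UBE2T was highest in the 4 libraries at 10 mM, with a log2 fold change of 0.78 ± 0.10 (adjusted p = 5.5e-06). FANCL was higher by 0.36 ± 0.08 at 10 mM than at 1 mM (adjusted p = 0.00079), and its acetate replicate 1, at 49.9 CPM, lay within the 10 mM range.

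FANCM, the motor protein that brings the core complex to DNA, had 24.3, 28.6, 24.6 and 23.8 CPM at 10 mM glucose, 14.3, 15.9, 15.8 and 20.0 CPM with acetate, and 12.9, 16.6, 11.4 and 13.7 CPM at 1 mM glucose. FANCB, a core subunit that forms a module with FANCL, had 13.9, 16.3, 13.5 and 12.6 CPM at 10 mM glucose, 7.35, 8.81, 10.7 and 11.4 CPM with acetate, and 6.88, 9.32, 6.36 and 7.71 CPM at 1 mM glucose. Both were highest in the 4 libraries at 10 mM, and both were low in 1 mM replicate 3. Their log2 fold changes were 0.89 ± 0.12 (adjusted p = 8.6e-06) and 0.90 ± 0.14 (adjusted p = 5.1e-05). FANCC, of the core complex, averaged 30.7 ± 2.04, 19.4 ± 1.55 and 19.2 ± 1.85 CPM at 10 mM glucose, with acetate and in 1 mM glucose (SD, n = 4 each), a log2 fold change of 0.68 ± 0.08 for 10 mM over 1 mM (SE). The other core subunits changed less, with log2 fold changes of 0.42 ± 0.05 for FANCA, 0.25 ± 0.06 for FANCG and 0.22 ± 0.06 for FANCF. FANCE, the subunit that binds FANCD2, had 13.5, 12.4, 13.6 and 12.7 CPM at 10 mM glucose, 14.2, 13.6, 14.4 and 12.9 CPM with acetate, and 15.3, 14.1, 15.6 and 15.2 CPM at 1 mM glucose. Its 10 mM libraries were below all 1 mM libraries, and the acetate libraries spanned the gap, with a log2 fold change of −0.21 ± 0.06 for 10 mM over 1 mM (adjusted p = 0.00997).

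Mismatch repair genes moved in different directions. MSH6, which finds single mismatched bases, had 146, 143, 136 and 146 CPM at 10 mM glucose, 96.8, 103, 100 and 112 CPM with acetate, and 87.4, 92.0, 81.0 and 89.0 CPM at 1 mM glucose. MSH3, which finds longer loops, had 36.3, 36.3, 35.4 and 38.7 CPM at 10 mM glucose, 29.7, 36.8, 35.8 and 37.9 CPM with acetate, and 33.3, 35.6, 28.3 and 32.2 CPM at 1 mM glucose. MSH6 was highest in every library at 10 mM and lowest in every library at 1 mM, with a log2 fold change of 0.71 ± 0.06 (adjusted p = 5.1e-08). The groups of MSH3 overlapped, and its log2 fold change of 0.18 ± 0.08 was not called (adjusted p = 0.0638, 95% interval 0.01 to 0.36). It was called in 5 of the 24 alternative settings. These were library totals (0.0024), the length and GC trend removed (0.0115), also with the replicate block (0.0198), and fits without 1 mM replicate 2 (0.0274) or acetate replicate 1 (0.0242). PMS1, a protein of the same pathway whose part in repair is little understood, had 30.6, 33.1, 30.6 and 30.0 CPM at 10 mM glucose, 49.7, 48.2, 48.7 and 49.8 CPM with acetate, and 44.1, 48.3, 37.5 and 44 CPM at 1 mM glucose. The 10 mM libraries of PMS1 were below the other 8, with a log2 fold change of −0.48 ± 0.07 (adjusted p = 2e-05).

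PMS2, the endonuclease that nicks the new strand, had 43.5, 44.4, 41.2 and 46.3 CPM at 10 mM glucose, 38.2, 45.7, 47.4 and 47.3 CPM with acetate, and 42.3, 46.4, 36.1 and 40.4 CPM at 1 mM glucose. Its groups overlapped, and its log2 fold change for 10 mM over 1 mM was 0.09 ± 0.08 (adjusted p = 0.366, 95% interval −0.09 to 0.27), though it was called with library totals (0.0216). PMS2 has near-identical pseudogenes, and CHEK2 and FANCD2 also have pseudogenes, so the counts of these 3 genes may be shared with theirs. MLH3, a relative of PMS2 best known from meiosis, was near the floor of detection, with 14, 15, 13 and 17 counts at 10 mM glucose, 8, 4, 6 and 9 counts with acetate, and 9, 8, 8 and 8 counts at 1 mM glucose. It passed the filter of 0.385 CPM in the 4 libraries at 10 mM alone and so had to differ, and its log2 fold change of 0.70 ± 0.23 (adjusted p = 0.0329) was not called by the DESeq2 Wald test (adjusted p = 0.087). The other 39 genes were over that level in all 12 libraries.

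Of the 6 checkpoint genes CHEK1, ATRIP, TOPBP1 and CHEK2 were called higher, against 33.7% of all genes tested. The kinases ATM and ATR themselves were not called. CHEK1, the kinase through which ATR stops the cell cycle, had 46.9, 47.6, 47.0 and 48.4 CPM at 10 mM glucose, 30.9, 34.8, 32.4 and 39.5 CPM with acetate, and 29.4, 31.2, 29.5 and 30.3 CPM at 1 mM glucose. ATRIP, which brings ATR to single-stranded DNA, had 22.9, 21.3, 21.0 and 20.7 CPM at 10 mM glucose, 13.6, 13.7, 13.2 and 14.0 CPM with acetate, and 12.6, 13.3, 14.4 and 14.4 CPM at 1 mM glucose. The 10 mM libraries of both genes were above all others. The log2 fold changes were 0.66 ± 0.07 for CHEK1 (adjusted p = 7.1e-07) and 0.65 ± 0.06 for ATRIP (adjusted p = 3.2e-07), and ATRIP overlaps the gene TREX1, from which its reads may not be separable. TOPBP1, which switches ATR on, had 179, 189, 173 and 180 CPM at 10 mM glucose, 124, 152, 153 and 167 CPM with acetate, and 126, 153, 111 and 136 CPM at 1 mM glucose. CHEK2, the kinase downstream of ATM, had 28.7, 25.7, 28.3 and 27.9 CPM at 10 mM glucose, 27.5, 25.9, 25.1 and 25.2 CPM with acetate, and 22.5, 23.4, 25.4 and 24.3 CPM at 1 mM glucose. TOPBP1 was highest in the 4 libraries at 10 mM, with a log2 fold change of 0.45 ± 0.10 (adjusted p = 0.00069), and CHEK2 was higher by 0.21 ± 0.06 at 10 mM than at 1 mM (adjusted p = 0.00565), its acetate libraries overlapping both groups.

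ATR, the kinase of stalled forks, had 58.9, 64.0, 57.3 and 58.3 CPM at 10 mM glucose, 47.8, 54.9, 58.2 and 60.6 CPM with acetate, and 56.7, 63.3, 37.6 and 49.8 CPM at 1 mM glucose. ATM, the kinase of broken ends, had 36.9, 42.7, 33.2 and 36.4 CPM at 10 mM glucose, 32.0, 42.8, 43.8 and 45.6 CPM with acetate, and 38.9, 49.8, 27.1 and 37.8 CPM at 1 mM glucose. The 3 groups overlapped for both genes, and 1 mM replicate 3 had the lowest value of all. The log2 fold changes of 10 mM over 1 mM were 0.20 ± 0.12 for ATR (adjusted p = 0.159, 95% interval −0.06 to 0.46) and −0.04 ± 0.15 for ATM (adjusted p = 0.82, 95% interval −0.36 to 0.28). ATR was called higher with library totals (0.34, adjusted p = 0.0208) and without 1 mM replicate 2 (adjusted p = 0.0273), and its value was 0.07 with each library's trend over length and GC content removed, and likewise 0.07 when the libraries that stood apart were left out instead. ATM, at 13.1 kb the longest of the 40 transcripts, was called lower at 10 mM once that trend was removed (−0.24, adjusted p = 0.00068).

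**Figure D3:**
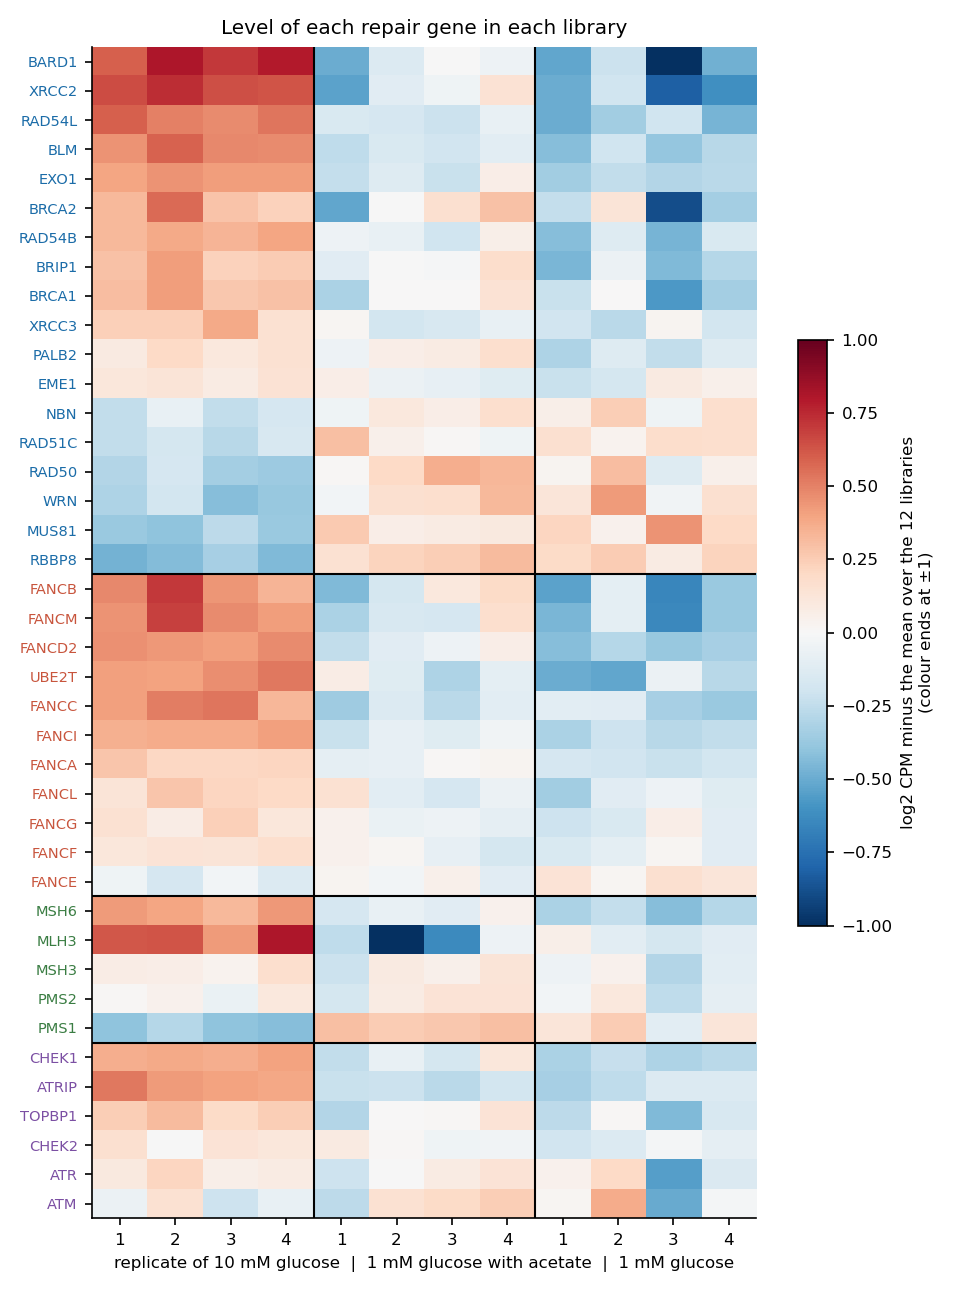
Level of each gene (rows, by class) in each of the 12 libraries (columns, by group and replicate), as log2 CPM minus the gene's mean over the 12 libraries, with the colour scale ending at ±1. Most rows are red at 10 mM glucose and blue at 1 mM, the 8 genes called lower at 10 mM have the colours the other way round, and acetate replicate 1 and 1 mM glucose replicate 3 are bluer than their groups for long transcripts such as BRCA2 and ATM.

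In the libraries that stood apart, long repair transcripts were low and short ones high. Across the 40 genes the Spearman correlation of transcript length with a library's level relative to its 3 fellow replicates was −0.593 in acetate replicate 1 and −0.690 in 1 mM glucose replicate 3, given as a description, since the genes share these libraries. Of the 7 genes with transcripts of at least 7 kb, 6 were lower than in the other replicates in acetate replicate 1, with MLH3 as the exception, and all 7 were lower in 1 mM glucose replicate 3. The 3 genes under 2 kb, UBE2T, FANCL and CHEK2, were higher in both libraries. BRCA2 differed by −0.67 on the log2 scale in acetate replicate 1 and −0.74 in 1 mM glucose replicate 3, and BARD1 by −0.43 and −0.60. UBE2T differed by 0.25 and 0.37. Without both libraries edgeR called 27 genes higher (36.5% of all genes tested) and 8 lower (36.2%) for 10 mM against 1 mM glucose, MLH3 being the gene that lost its call (adjusted p = 0.0585).

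**Figure D4:**
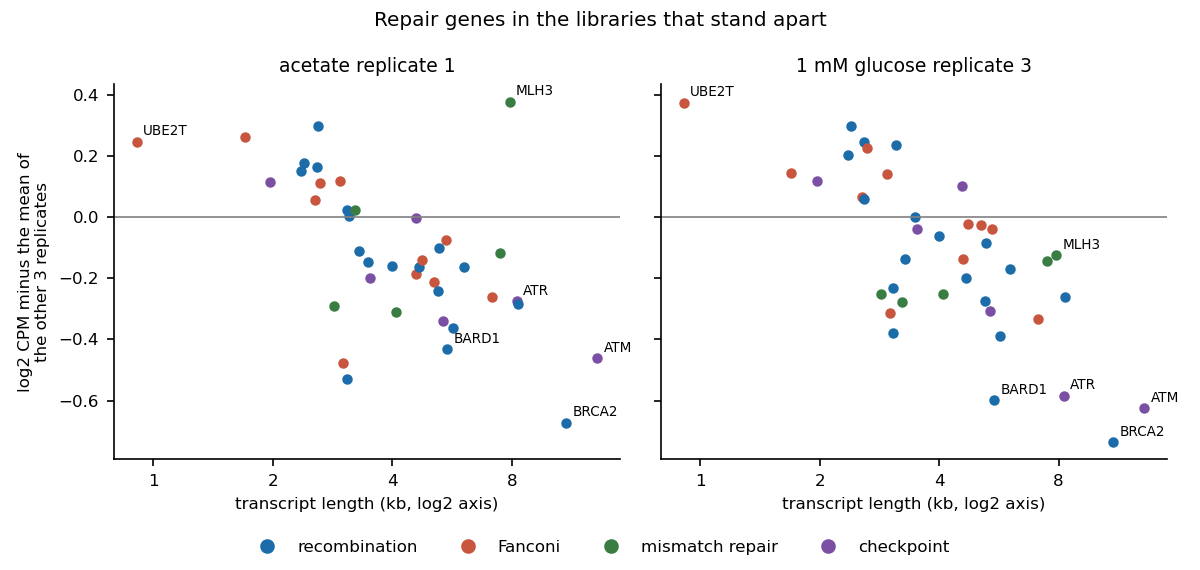
Log2 CPM of each gene in the library that stood apart minus the mean of the other 3 replicates (y axis) against transcript length in kb (x axis, log2 scale), for acetate replicate 1 on the left and 1 mM glucose replicate 3 on the right, points coloured by class. Points fall with length, from UBE2T at 0.25 and 0.37 to BRCA2 at −0.67 and −0.74.

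With acetate at 1 mM glucose few of these transcripts rose, and none was called lower. The edgeR test called 6 of 40 higher (15%), against 6.65% of all genes tested, and 0 lower, against 7.09% of all genes tested. At an unadjusted p under 0.05 there were 18 higher (45%), against 13.8% of all genes, and 0 lower, against 14.6%. The DESeq2 Wald test called 8 higher, against 7.26% of all genes, and limma-voom 6, against 6.5%, and both called 0 lower. The 6 were PALB2, BRIP1 and RAD54L of recombination, FANCD2 and FANCA of the Fanconi pathway, and MSH6 of mismatch repair, and no checkpoint gene was called. Of the 40 log2 fold changes 33 were above 0, with a median of 0.15, against 0.00 over all genes. The comparison shares its 1 mM libraries with the one for glucose.

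FANCD2, whose values are given above, was higher in every acetate library than in every 1 mM library, with a log2 fold change of 0.27 ± 0.06 (SE, adjusted p = 0.01). PALB2 likewise had all 4 acetate libraries above the 1 mM libraries, with 0.27 ± 0.06 (adjusted p = 0.0127). These calls held under all 24 alternative settings. MSH6 changed by 0.24 ± 0.06 (adjusted p = 0.0132), again with no overlap, and its call was lost in 1 setting, where the trend over length and GC was taken out and the replicate number was a block (0.0559). For FANCA, which averaged 97.7 ± 4.24 CPM with acetate and 87.5 ± 1.38 CPM at 1 mM glucose (SD, n = 4 each), the change was 0.16 ± 0.05 (adjusted p = 0.0364) without overlap. RAD54L changed by 0.22 ± 0.07 (adjusted p = 0.0411) and BRIP1 by 0.32 ± 0.09 (adjusted p = 0.0264). Of the alternative settings, 12 ended the call of FANCA, 12 that of RAD54L and 6 that of BRIP1.

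The count of genes called for acetate depended on single libraries. It was 14 higher without acetate replicate 1, against 10.2% of all genes called higher in the same fit, and 12 without 1 mM replicate 2, against 7.84%. It was 3 without 1 mM replicate 1 (4.25% of all genes) or 4 (4.1%), and 3 without acetate replicate 2 (4.52%), 3 (4.21%) or 4 (3.92%). Without both libraries that stood apart it was 16, against 13.0% of all genes called higher in that fit, and with library totals 12, against 9.54%. The 10 genes called in addition without both libraries were BRCA1, BRCA2, BARD1, XRCC2, EXO1, FANCB, FANCI, UBE2T, CHEK1 and TOPBP1, with adjusted p from 0.00113 for XRCC2 to 0.0404 for BRCA2. BARD1, XRCC2, UBE2T and BRCA1 then had log2 fold changes of 0.33, 0.42, 0.26 and 0.23, against 0.37, 0.39, 0.22 and 0.24 and no call with all libraries (adjusted p = 0.096, 0.0634, 0.157 and 0.172). For the 34 genes not called the 95% intervals reached from −0.97, for MLH3, to 0.70, for BRCA2, on the log2 scale. The 8 genes lower at 10 mM glucose differed with acetate by −0.13 ± 0.06 (FANCE) to 0.18 ± 0.07 (PMS1, adjusted p = 0.0992) on the log2 scale, and none was called. PMS1 was called higher in 2 settings, with library totals (adjusted p = 0.049) and without 1 mM replicate 2 (0.0289), and NBN lower in 2, with the trend over length and GC removed (0.0244) and with the replicate block beside that (0.0305). RAD50 had 0.16 ± 0.09 (95% interval −0.03 to 0.36) and RBBP8 0.05 ± 0.06 (−0.07 to 0.17).

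At 10 mM glucose most of the 40 transcripts were also higher than with acetate at 1 mM. This comparison, which also tests the difference between the other two, had 24 of 40 genes called higher at 10 mM (60%), against 31.0% of all genes tested, and 7 called lower (17.5%), against 31.8%. The 7 were RBBP8, PMS1, RAD50, WRN, MUS81, RAD51C and NBN. PMS1 had the lowest log2 fold change, −0.66 ± 0.07 (adjusted p = 1e-06), and RBBP8 −0.65 ± 0.06 (adjusted p = 1.3e-07). MLH3, at 1.08 ± 0.24, is among the 24, but it passed the filter through its 10 mM libraries alone and so had to differ. Of the other genes BARD1 had the highest value, at 0.89 ± 0.13 (adjusted p = 3.3e-05), and XRCC2 had 0.78 ± 0.13 (adjusted p = 9.3e-05). PALB2 was not called, at 0.07 ± 0.06 (adjusted p = 0.353), and neither were BRCA2, EME1, FANCE, MSH3, PMS2, ATM, ATR and CHEK2. EME1 (adjusted p = 0.0522) was called higher in 13 of the 24 alternative settings, among them the fit without both libraries that stood apart (0.00275). BRCA2 was called higher in 5 of the settings. PALB2 was called higher with library totals (0.0259), and CHEK2 there (0.0107) and with the trend over length and GC removed, with the replicate block (0.00159) and without it (0.00054). ATM was called lower with that trend removed (0.00091), also with the block (0.00034), and without both libraries that stood apart (0.0138). For ATRIP and FANCC, with −0.01 ± 0.06 and 0.02 ± 0.08 for acetate over 1 mM glucose, the difference between 10 mM glucose and acetate was 0.66 ± 0.06 (adjusted p = 3.5e-07) and 0.66 ± 0.08 (adjusted p = 4.7e-06). Of the 31 calls 27 held under all alternative settings in which the gene was fitted, which were 24, or 23 for MLH3.

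Because many of these proteins work in pairs, the counts of 14 pairs of partner genes were divided within each library. The pairs were chosen with the values known, so the ratios are a description and were not tested. Counts are not per length here, so a ratio is read across libraries and not as a proportion of the proteins. MUS81 over EME1 was 0.993, 0.964, 1.09 and 0.970 at 10 mM glucose, 1.59, 1.51, 1.56 and 1.62 with acetate, and 1.88, 1.62, 1.78 and 1.54 at 1 mM glucose. RAD51C over XRCC3 was 1.04, 1.09, 0.921 and 1.17 at 10 mM glucose, 1.76, 1.71, 1.64 and 1.49 with acetate, and 1.86, 1.79, 1.61 and 1.86 at 1 mM glucose. In both pairs the counts were near equal at 10 mM, and the first partner was in excess in all 8 libraries at 1 mM glucose. BLM over WRN averaged 2.66 at 10 mM glucose, 1.20 with acetate and 1.08 in 1 mM glucose, and PMS2 over PMS1 averaged 1.41, 0.906 and 0.951, again with no overlap of 10 mM with the rest.

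BRCA1 over BARD1 was 3.20 to 3.72 at 10 mM glucose, 4.57 to 5.19 with acetate and 4.99 to 6.10 in 1 mM glucose, so that 10 mM stood apart and the other groups overlapped. MSH6 over MSH3 averaged 3.90, 2.95 and 2.71, CHEK1 over CHEK2 1.72, 1.32 and 1.26, and FANCL over UBE2T 0.657, 0.816 and 0.881 at 10 mM glucose, with acetate and in 1 mM glucose. The partners FANCD2 and FANCI kept more nearly the same proportion, with means of 0.418, 0.407 and 0.374, though the 10 mM libraries were all above the 1 mM ones. RAD50 over NBN averaged 0.784 at 10 mM glucose, 0.939 with acetate and 0.818 in 1 mM glucose, and was thus highest with acetate. ATR over ATRIP averaged 2.78, 4.06 and 3.73, with 1 mM replicate 3 at 2.61. In 10 of the 14 pairs the 10 mM and 1 mM libraries did not overlap, in 2 the acetate and 1 mM libraries, namely RAD50 over NBN and FANCD2 over FANCI, and in 12 the 10 mM and acetate libraries. Taken singly, 61.5%, 15.6% and 61.0% of all genes tested did not overlap in these comparisons. The share over all pairs of genes was not computed, so these counts do not set partner genes apart from others.

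**Figure D5:**
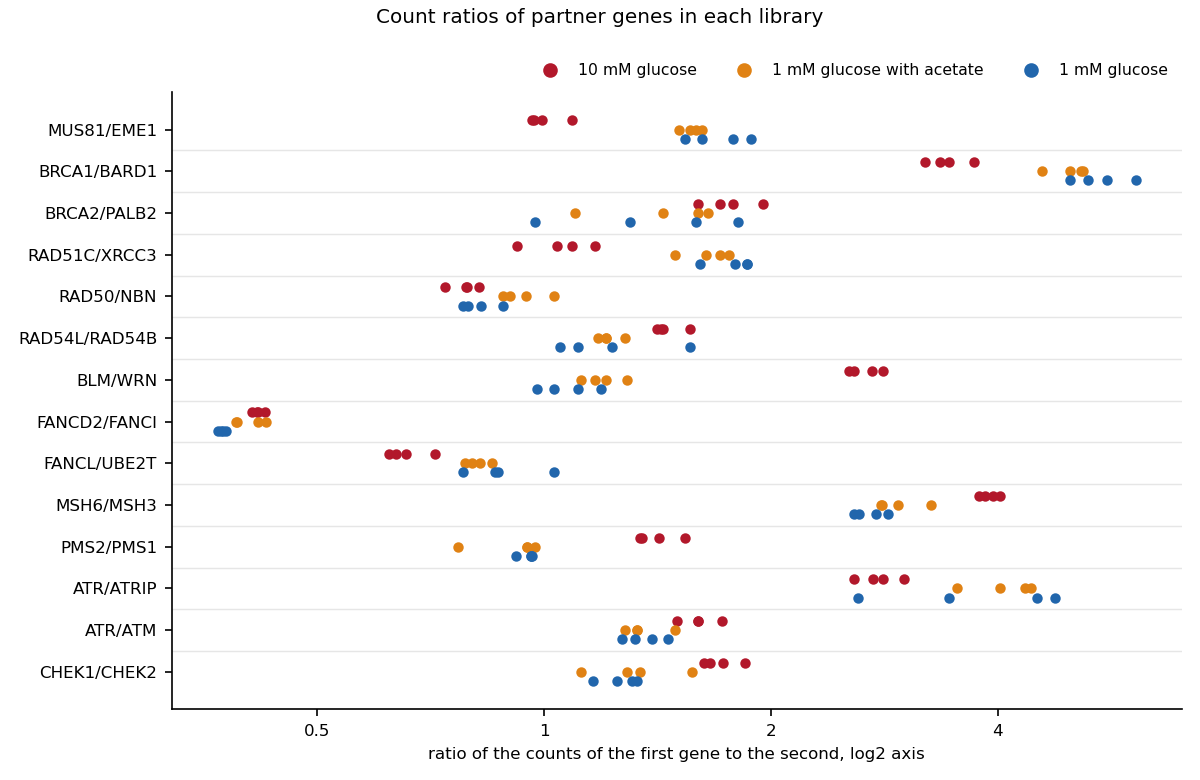
Ratio of the counts of the first gene to the second (x axis, log2 scale) for 14 partner pairs (y axis), each point being 1 library, with 10 mM glucose above, acetate in the middle and 1 mM glucose below within each pair. For MUS81/EME1, RAD51C/XRCC3 and BRCA1/BARD1 the 10 mM libraries lie left of the other 8, and for BLM/WRN and PMS2/PMS1 right of them.

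Levels per length show where the pathways were most and least abundant. In CPM per kb of transcript, UBE2T was highest in all groups, with 86.9 ± 3.44, 59.0 ± 6.28 and 50.7 ± 7.81 at 10 mM glucose, with acetate and in 1 mM glucose (SD, n = 4 each). FANCI was the second at 10 mM glucose, with 64.4 ± 1.12 CPM per kb, and TOPBP1 the third, with 33.5 ± 1.21. FANCL, EME1, MUS81, EXO1 and FANCG followed at 30.5 to 28.8 CPM per kb, neighbours that did not differ beyond their SD. MUS81 stood in place 6 of 40 at 10 mM glucose, in place 3 with acetate and in place 2 at 1 mM glucose, and RBBP8 in places 14, 6 and 5. BARD1 stood in place 33 at 10 mM glucose and in place 38 in both other groups. MLH3 was the lowest throughout, at 0.0690 CPM per kb at 10 mM glucose, below ATM at 2.84 and FANCM at 3.56.

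Other genes of the same pathways also had more calls higher than lower for glucose, where over all genes 33.7% were called higher and 33.8% lower. Of 29 other recombination genes tested, 18 were called higher and 5 lower at 10 mM than at 1 mM glucose, with a median log2 fold change of 0.29, and of 16 other Fanconi and crosslink genes 9 were higher and 2 lower, with a median of 0.34. The deubiquitinase BRCC3 of the BRCA1-A complex had 32.1 ± 1.07, 16.3 ± 0.918 and 15.2 ± 0.986 CPM at 10 mM glucose, with acetate and in 1 mM glucose (SD, n = 4 each), a log2 fold change of 1.08 ± 0.06 (adjusted p = 1.4e-09). RMI2, of the BLM complex, had 1.16 ± 0.08 (adjusted p = 9e-09). DCLRE1B, the Apollo nuclease, had 1.05 ± 0.05 (adjusted p = 2.7e-10), and C17orf70, the Fanconi core subunit FAAP100, was lower, at −0.54 ± 0.06 (adjusted p = 8.4e-07). Of 13 other genes of mismatch repair and its synthesis step, 9 were higher and 2 lower, and those with the smallest p were the polymerase subunit POLD3 (0.96 ± 0.05) and the ligase LIG1 (0.88 ± 0.06). Of 17 other checkpoint genes 12 were higher and 3 lower, with CLSPN, the mediator between ATR and CHEK1, at 1.40 ± 0.10 (adjusted p = 1.3e-08) and the phosphatase CDC25A at 0.78 ± 0.06.

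Genes of other repair routes were counted in the same way. Of 14 end joining genes 4 were called higher and 6 lower, with a median of −0.04, with the Ku subunit XRCC5 at 0.47 ± 0.05 and the polymerase POLL at −0.66 ± 0.08. Of 27 base and nucleotide excision genes 9 were higher and 5 lower, with a median of 0.06, with the helicase ERCC2 at −1.67 ± 0.07 (adjusted p = 2.7e-11) and the flap nuclease FEN1 at 0.89 ± 0.07. With acetate at 1 mM glucose, 7 of 29 other recombination genes, 1 of 16 other Fanconi genes, 3 of 13 other mismatch repair genes and 2 of 17 other checkpoint genes were called higher, against 6.65% of all genes, and 0 were called lower, against 7.09%. At an unadjusted p under 0.05, 12, 4, 7 and 4 genes of these lists, in the same order, were higher, against 13.8% of all genes. At that limit 1, 2, 0 and 1 were lower, against 14.6%. The DESeq2 Wald test called 8, 1, 5 and 3 higher, against 7.26% of all genes, and 0, 1, 0 and 1 lower, against 9.3%. In the same comparison 7 of 19 G1/S genes were called higher and 1 lower, with a median log2 fold change of 0.17, MCM4 at 0.33 (adjusted p = 0.00189) among the higher and CDC6 at −0.17 (adjusted p = 0.0351) the lower one. Of the 19 G2/M genes 0 were called for acetate by edgeR, with a median of 0.03, against 1 higher and 2 lower at an unadjusted p under 0.05 and 1 higher and 1 lower by DESeq2. The part of these cell-cycle genes in the acetate result was not tested.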

How the data were processed

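Messenger RNA levels were measured by RNA sequencing in 12 libraries of LN229 cells. For each library the authors deposited a table of 34917 RefSeq transcripts with raw, whole-number counts that had not been normalized, and a mark for 1 transcript of most genes (another deposited column, of 0 or 1). The build is hg19, per the submitters' processing notes, while aligner, counting program and strand setting were not given in the sources used here. The marked transcript stood for its gene, or the one with the highest total where none was marked, as for ATM, ATR, BLM and WRN. Transcripts of a gene can share reads and were not added up. The marked transcript of BRCA1 is annotated as noncoding.

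Genes were tested with edgeR 4.0.16 in R 4.3.3 (filterByExpr with a minimum count of 10, TMM, quasi-likelihood F test), fitting all 12 libraries with 1 mean per group, with Benjamini-Hochberg adjustment of p over 14416 genes. Log2 fold changes are of the first group named over the second, with an SE from the F statistic. The common biological coefficient of variation was 8.51%, and total counts of 24.4 to 27.2 M bound the counting error. The alternatives changed the scaling (DESeq2 size factors or library totals), the test (the Wald test of DESeq2 1.42.0, or limma-voom with limma 3.58.1), the filter (none, or a mean of at least 5 CPM), the libraries (only the 8 compared, without each 1, or without both that stood apart), the transcript (highest total for every gene) and the model (replicate number as block). A last pair took out a spline with 5 degrees of freedom over the length and GC of transcripts in each library, without the block and with it. Lengths came from GENCODE v29, by RefSeq accession for all 40 genes. The fit was also run on simulated counts with known changes in the acetate group alone. These counts lacked the length trend of the libraries that stood apart, so the run does not cover its effect on the calls.

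The 40 genes, the other lists and the tests were chosen with earlier results of these data known. All 40 may be named, and of each other list the 2 called genes with the smallest p for glucose, plus the cell-type markers. Some other genes are not reported here. Partner ratios were added after the data were seen. Promoter windows are those of RefSeq on GRCh38.p14, another build than that of the counts.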

Additional observations from a re-analysis of the deposited data

Results flagged for a closer look

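In 3 of the 120 groups of 4 libraries (40 genes in 3 conditions) 1 library lay far from the other 3 by Dixon's test at its 95% limit. Chance gives such a gap in about 1 of 20 groups. FANCA at 10 mM glucose had 121 CPM in replicate 1, against 115 to 116 CPM in the other replicates. MUS81 with acetate had 107 CPM in replicate 1, one of the libraries that stood apart, against 92.9 to 95.2 CPM in the others. RAD51C at 1 mM glucose had 43.9 CPM in replicate 2, against 48.0 to 48.6 CPM in the others.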

How the results depend on the processing

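For 10 mM against 1 mM glucose, leaving out single libraries gave 26 to 29 of the 40 genes called higher and 8 lower, and for 10 mM glucose against acetate 22 to 26 higher and 7 lower. Of all genes these fits called 31.3 to 35.1% higher and 31.5 to 35.1% lower in the first comparison, and 28.8 to 33.0% and 29.4 to 33.5% in the second. For acetate against 1 mM glucose, with 6 higher and 0 lower, leaving out single libraries gave 3 to 14 higher and 0 lower. The shares of all genes there were 3.92 to 10.2% and 4.32 to 10.2%. The other settings that moved this count by more than 1.5 times were library totals (12 higher), the length and GC trend removed (12 higher, against 12.3% of all genes, and 1 lower, NBN, against 15.2%), the trend removed with the replicate block (11 higher, against 11.2%, and 1 lower, against 13.7%), only the 8 libraries compared (3 higher, against 3.55%) and both libraries that stood apart left out (16 higher). The cause was not tested. No value of a single gene that was called changed direction in any setting.

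Deviations of libraries with the same replicate number had correlations from −0.365 to 0.27. Between 10 mM and 1 mM glucose all were positive, at 0.064 to 0.27. Libraries of different numbers were not compared, so these values do not show whether the numbers pair the libraries. With the number as a replicate block 27 genes were higher and 8 lower for glucose, against 33.3% and 33.4% of all genes. It gave 4 and 0 for acetate, against 6.03% and 6.31%, and 24 and 7 for 10 mM glucose against acetate, against 30.5% and 31.2%. Library totals gave 63.3% of all calls as higher for glucose in place of 49.9%, 65.2% in place of 48.4% for acetate and 60.8% in place of 49.4% for 10 mM glucose against acetate. With the length and GC trend removed, 5 of the partner ratio differences moved by more than the spread between libraries, none in sign. MLH3, at 4 to 17 counts per library, is the gene whose depth limits its values most.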

Other observations

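The shorter BRCA1 transcript NM_007298 had 55.9 to 58.3% of the counts of the longer NM_007294 at 10 mM glucose, 58.7 to 73.5% with acetate and 56.8 to 74.7% at 1 mM glucose. The highest values were those of acetate replicate 1 and 1 mM glucose replicate 3, the libraries in which long transcripts were low, at 73.5 and 74.7%. The other 6 libraries at 1 mM glucose, with or without acetate, ran from 56.8 to 64.0%. Counts of FANCA in its short transcript were 24.8 to 25.9% of those in the long one at 10 mM glucose, 25.6 to 27.6% with acetate and 24.8 to 28.6% at 1 mM glucose. For RAD51C the ranges were 52.8 to 55.2%, 52.8 to 54.5% and 50 to 54%, and the groups of both genes overlapped. Of 3 other pairs of transcripts, those of FANCD2 and PMS1 overlapped as well. In RAD54L the counts of NM_001142548 were 89.7 ± 0.699% of those of NM_003579 at 10 mM glucose, 92.7 ± 1.78% with acetate and 92.4 ± 1.06% in the 1 mM group (SD, 4 libraries each), and the 10 mM libraries, with at most 90.4%, lay below the other 8. This was not tested.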
